A study of Homo sapiens with 10 samples.

Results

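Collagens, laminins and the glycoproteins that bind them make up much of the extracellular matrix, and this report describes their transcripts in TPC-1, a papillary thyroid carcinoma line driven by a CCDC6-RET fusion, under the RET inhibitor BLU667. The set was defined by gene name: protein-coding genes of the deposited FPKM table named COL, a number, A and a number, those named LAMA, LAMB or LAMC with 1 digit, and the 10 glycoprotein genes FN1, BGN, LUM, SPARC, FBN1, THBS1, TNC, POSTN, NID1 and HSPG2. It holds 66 of the 58735 genes in the table, namely 44 collagen chains, 12 laminin chains and 10 glycoproteins. FPKM is read fragments scaled by gene length and library depth, a level per length. The length counts all annotated exon bases of a gene, so the level of a gene relative to another depends on that annotation. The same length enters every library, so it does not affect how a gene compares between groups. Gene positions are those of the deposited table (GRCh38).

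Parental TPC-1 cells were treated for 24 h with the solvent DMSO or with 5 µM BLU667 (pralsetinib). The 3 colonies BR8, BR10 and BR16 were derived from the same parental line in continued culture with 5 µM BLU667. Their exposure is given as more than 50 days in the sample labels and as more than 5 months in the series design. Each of the 5 groups has 2 libraries, described as biological replicates, so a p-value measures the spread between those libraries. All groups carry the same fusion, each colony is 1 line, and the labels do not say whether the drug was still in the medium when RNA was taken. Bulk RNA does not tell fewer cells that express a gene from less RNA per cell.

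Collagen chains assemble as trimers. Type IV forms the network of basement membranes, types I, II, III, V and XI form fibrils, and others coat fibrils or span the plasma membrane. Laminins are trimers of an α, a β and a γ chain that bind cells through integrins. The α3 and β3 chains (genes LAMA3 and LAMB3) belong to the laminin that anchors stratified epithelia, whereas γ1 and β1 or β2 are shared by most basement membrane laminins. Thyroid follicles are each wrapped in a basement membrane of collagen IV, laminin, nidogen and perlecan.

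Genes with at least 1 FPKM in at least 2 of the 10 libraries were tested, which kept 13927 genes and 35 of the 66 members (19 collagen chains, 7 laminin chains and 9 glycoproteins). Of these 35, 25 reached 1 FPKM in both libraries of every group and 10 only in some groups, so that a member of the latter kind passed through the groups in which it was high. The libraries held 15243703 to 21904245 reads in genes. Log2 values of the replicates correlated across genes at r = 0.978 in DMSO to 0.989 in BR16, and the difference between the DMSO replicates followed transcript GC content (Spearman 0.619 across genes, which are not independent). The thyroid transcription factor gene PAX8 was present in every library (35.3 to 94.7 FPKM), while NKX2-1 and TSHR had at most 2 reads in any library. Of 6 epithelial markers, CDH1 and EPCAM stayed at or below 0.1 and 0.196 FPKM, and the summed list, nearly all of it KRT8 and KRT18, was 49.3 and 63.3 FPKM in DMSO, 28.4 and 28.8 in BLU667, 46.2 to 53.0 in BR8 and BR10 and 98.4 and 110.6 in BR16. The part of these keratins in the laminin and hemidesmosome results was not tested. Of 7 fibroblast markers, DCN had no read in any library, FAP reached at most 0.00903 and PDGFRA at most 0.16 FPKM. The summed list was 28.4 and 29.6 FPKM in the DMSO libraries, 23.9 and 26.8 in BLU667 and 2.26 to 4.07 in the colonies. It was carried by the other markers, PDGFRB, THY1, PDPN and ACTA2, of which 3 were tested. Against DMSO, 1 of these 3 was called higher and 1 lower in BLU667 (limma, adjusted p below 0.05), beside 60.2% of all tested genes called. In the mean of the colonies 2 were called lower and 0 higher, beside 26.3% of all tested genes lower and 22.9% higher. The 5 endothelial and 6 immune markers summed to at most 1.01 and 0.363 FPKM in any library.

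Taken as 1 sum, the matrix transcripts took a larger share of the reads in every drug-treated or adapted library than in DMSO. The 66 genes took 1.04% and 0.938% of the reads in the DMSO libraries, 2.46% and 2.85% in BLU667, 2.63% and 2.5% in BR8, 1.91% and 1.98% in BR10, and 3.32% and 3.38% in BR16. Collagen IV chains summed to 65.96 ± 10.4 FPKM in DMSO (mean ± SD, n = 2, as for the sums that follow). They stood at 339 ± 3.5 in BLU667, 490.2 ± 22.3 in BR8, 147 ± 9.26 in BR10 and 654 ± 2.38 in BR16. The 38 other collagen chains together ran from 124 ± 21.5 FPKM in DMSO to 262 ± 0.894 in BR16, a narrower range. Laminin β chains summed to 196 ± 36.7 FPKM in DMSO and 169 ± 6.37 in BLU667. They were at 176 ± 8.33 in BR8, 136 ± 10.8 in BR10 and 166 ± 2.59 in BR16. Laminin α chains summed to 24.4 ± 7.08 FPKM in DMSO and 26.5 ± 0.179 in BLU667. They were at 17.4 ± 2.44 in BR8, 16.0 ± 2.3 in BR10 and 32.7 ± 1.4 in BR16. Neither of these laminin classes was above its DMSO mean in every other group. These sums carry no test.

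**Figure D1:**
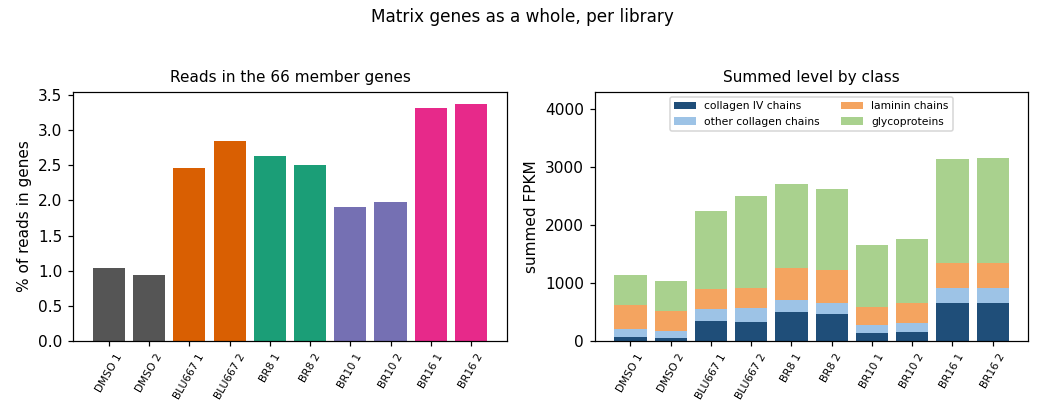
Left, percent of the reads in genes that fell in the 66 member genes, 1 bar per library, coloured by group. Right, FPKM summed over collagen IV chains, other collagen chains, laminin chains and glycoproteins, stacked per library; the DMSO bars are lowest on both sides (1.04% and 0.938% of reads) and the BR16 bars highest (3.32% and 3.38%).

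After 24 h of BLU667, 21 of the 35 tested members were called higher than in DMSO and 6 lower (limma on log2(FPKM + 1), adjusted p below 0.05), beside 60.2% of all tested genes called in either direction, 29.0% higher and 31.2% lower. Their median log2 change was 0.80, against -0.01 over all tested genes. Values after ± are standard errors (SE) of that fit wherever a log2 change is given. By family, 13 of 19 tested collagen chains were higher and 2 lower, 2 of 7 laminin chains were higher and 2 lower, and 6 of 9 glycoproteins were higher and 2 lower. The changes in the adapted colonies were read against the same DMSO libraries, so the 4 comparisons with DMSO share their controls. In BR8, 17 members were higher and 6 lower than in DMSO, with 51.3% of all genes called (24.0% higher, 27.3% lower). BR10 also had 17 members higher and 6 lower, with 40.8% of all genes called (19.2% higher, 21.5% lower), and 3 lower without DMSO replicate 1. BR16 had 23 higher and 6 lower, with 45.5% called (21.9% higher, 23.6% lower). The median change was 0.37 in BR8, 0.4 in BR10 and 0.95 in BR16, against -0.03, -0.01 and -0.01 over all genes.

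**Figure D2:**
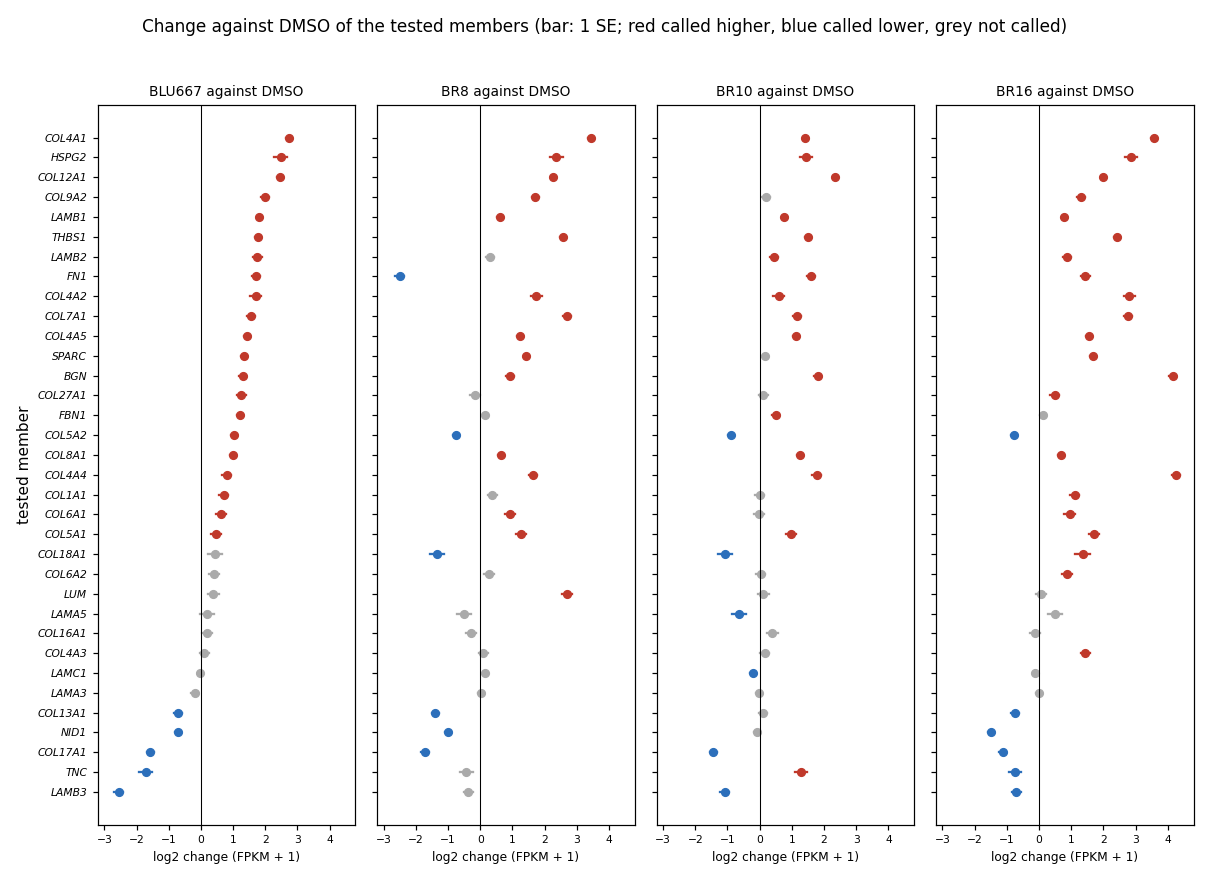
Log2 change (FPKM + 1) against DMSO of the tested members described here in BLU667 and in each colony, with 1 SE as bar; red is called higher, blue called lower and grey not called. COL4A1 lies to the right of 0 in each panel, LAMB3 to the left in BLU667 (-2.55), and FN1 right in BLU667 (1.71) and left in BR8 (-2.50).

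The type IV chains are encoded as head-to-head gene pairs, and letters from between the RefSeq starts of each pair are shown because the paired genes are read in opposite directions from there. COL4A1 (minus strand) and COL4A2 (plus strand) lie on chromosome 13, with 126 bases between their RefSeq starts. The gene models used for their counts overlap there, from 110305812 to 110307233, but share no exon bases. The printed stretch lies inside the COL4A2 model and partly inside that of COL4A1. COL4A4 (minus) and COL4A3 (plus) lie on chromosome 2, with 418 bases between their RefSeq starts and 111 between the gene models used for the counts, which are the ones printed. COL4A5 (X, plus) has COL4A6 (minus) on its other side, with 379 bases between RefSeq starts and 346 between gene models, of which 250 are printed. All sequences are 5′ to 3′ from RefSeq's tables on GRCh38.p14, on the strand given, and capitals mark the letters CCAAT or GGGCGG (a GC box) on either strand. The COL4A1 and COL4A2 stretch is chr13:110307158-110307283 (plus strand) and is 80.2% G or C. The COL4A4 and COL4A3 stretch is chr2:227164454-227164564 (plus strand), and the COL4A5 stretch is the 250 bases before its start, chrX:108439588-108439837 (plus strand).
COL4A1 and COL4A2: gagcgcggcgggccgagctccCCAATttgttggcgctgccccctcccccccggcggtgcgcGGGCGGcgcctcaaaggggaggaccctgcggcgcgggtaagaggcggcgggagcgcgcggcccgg
COL4A4 and COL4A3: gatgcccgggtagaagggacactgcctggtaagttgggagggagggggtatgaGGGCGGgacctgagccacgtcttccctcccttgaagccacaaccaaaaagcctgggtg
COL4A5: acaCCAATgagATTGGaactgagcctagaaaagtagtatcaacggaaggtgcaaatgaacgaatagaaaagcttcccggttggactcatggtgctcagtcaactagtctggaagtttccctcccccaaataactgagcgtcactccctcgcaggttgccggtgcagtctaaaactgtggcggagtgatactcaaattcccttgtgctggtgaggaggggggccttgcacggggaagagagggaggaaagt
The first stretch holds 1 CCAAT and 1 GC box, the second 1 GC box and no CCAAT, and the third 2 CCAAT and no GC box. Over the 35116 promoter windows of the RefSeq table, each from 250 bases before to 50 after a start, 34.6% held a CCAAT and 45.0% a GC box, searched on both strands, and 7.71% held TGANTCA, the AP-1 motif, which none of the 3 stretches has. Of the 29 tested members with a window, 8 held a CCAAT, 23 a GC box and 2 the AP-1 letters (LAMA3 and LAMB3) in any of their windows. The percentages are per window over all genes of the RefSeq table and the counts are per member. The units are unlike, and the counts were not compared with the percentages. A match describes letters only.

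COL4A1 and COL4A2 (α1 and α2 of collagen IV, the chains of most basement membranes) were higher than in DMSO in BLU667 and in each colony. COL4A1 (ENSG00000187498, chromosome 13, 110148963 to 110307233, minus strand) had 35.8 and 33.5 FPKM in the DMSO libraries, 239 and 233 after BLU667, then 397 and 372 in BR8, 91.1 and 97.2 in BR10 and 421 and 418 in BR16. No treated or adapted library came down to the DMSO level, and BR10 was the lowest of them. The log2 change against DMSO was 2.73 in BLU667, 3.43 in BR8, 1.42 in BR10 and 3.56 in BR16 (each ± 0.078, largest adjusted p = 9.48e-06). BR8 and BR16 were not called apart (-0.12 ± 0.078, adjusted p = 0.218), whereas BR10 lay below both (2.02 ± 0.078, adjusted p = 5.8e-06 for BR8 against BR10, and -2.14 ± 0.078, adjusted p = 6.01e-06 for BR10 against BR16).

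COL4A2 (ENSG00000134871, chromosome 13, 110305812 to 110513209, plus strand) had 34.8 and 22.8 FPKM in DMSO, 94 and 94.6 in BLU667, 98.7 and 93.6 in BR8, 39.7 and 46.7 in BR10 and 201 and 207 in BR16. BLU667 and BR8 were level with each other, BR16 was above them, and BR10 was closest to DMSO. Its change was 1.71 in BLU667, 1.73 in BR8, 0.59 in BR10 and 2.81 in BR16 (each ± 0.17, largest adjusted p = 0.0249). The BR10 call ended without DMSO replicate 2 (0.30) or BR10 replicate 2 (0.48), with an adjusted p of 0.000942 to 0.129 over its alternatives. The 2 paired genes did not keep one ratio: COL4A1 was 1.20 times COL4A2 in DMSO, 2.5 times in BLU667, 4.0 times in BR8, 2.18 times in BR10 and 2.06 times in BR16 (ratios of mean FPKM, with 1.03 and 1.47 in the DMSO libraries and no test).

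COL4A3 and COL4A4 encode the α3 and α4 chains, which with α5 form the collagen IV of the kidney and lung filter. COL4A4 (ENSG00000081052, chromosome 2, 227002711 to 227164453, minus strand) had 0.171 and 0.144 FPKM in the DMSO libraries, 0.874 and 1.15 after BLU667, then 3.11 and 2.19 in BR8, 2.87 and 3.02 in BR10 and 20.7 and 21.4 in BR16. Its level in BR16 was 133.5-fold that in DMSO, where it rested on 32 and 23 reads. The log2 change, which 1 added FPKM makes smaller for such low genes, was 0.8 in BLU667, 1.64 in BR8, 1.77 in BR10 and 4.25 in BR16 (each ± 0.13, largest adjusted p = 0.000875).

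COL4A3 (ENSG00000169031, chromosome 2, 227164565 to 227314792, plus strand) had 0.0118 and 0.0139 FPKM in DMSO, 0.0623 and 0.107 in BLU667, 0.0436 and 0.117 in BR8, 0.129 and 0.13 in BR10 and 1.84 and 1.66 in BR16. It reached 1 FPKM in BR16 alone and was called against DMSO there (1.44 ± 0.14, adjusted p = 9.55e-05). It had 2 reads in each DMSO library, so no fold is given. In BLU667 its change was 0.1 ± 0.14 (adjusted p = 0.576), called by 1 of 14 alternatives, voom on recovered reads (2.41, with adjusted p from 0.0119 to 0.941 over those alternatives).

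COL4A5 (α5, ENSG00000188153, chromosome X, 108439844 to 108697545, plus strand) had 2.44 and 2.14 FPKM in the DMSO libraries, 7.8 and 7.94 after BLU667, then 7.25 and 6.12 in BR8, 6.27 and 6.13 in BR10 and 8.44 and 8.66 in BR16. All treated and adapted libraries were above both DMSO libraries, with changes of 1.43 in BLU667, 1.22 in BR8, 1.13 in BR10 and 1.54 in BR16 (each ± 0.091, largest adjusted p = 5.72e-05). The spread among colonies was 0.41 log2 units between the highest and lowest colony mean, adjusted p = 0.0123, a call that ended without either BR16 library. COL4A6, its head-to-head neighbour, did not exceed 0.095 FPKM in any library.

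HSPG2, SPARC and NID1 encode partners of collagen IV: perlecan, a heparan sulfate proteoglycan of basement membranes, the collagen-binding glycoprotein osteonectin, and nidogen-1, which links laminin to collagen IV. HSPG2 (ENSG00000142798, chromosome 1, 21822245 to 21937297, minus strand) had 24.4 and 16.6 FPKM in DMSO, 105 and 128 in BLU667, 118 and 99 in BR8, 51 and 63 in BR10 and 149 and 156 in BR16. Its level was higher than in DMSO throughout, by 2.47 in BLU667, 2.37 in BR8, 1.45 in BR10 and 2.86 in BR16 (each ± 0.19, largest adjusted p = 0.00067). Of its exon bases, 11.7% are shared with LDLRAD2 on the other strand, which these non-directional libraries cannot tell apart.

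SPARC (ENSG00000113140, chromosome 5, 151661096 to 151687165, minus strand) had 174 and 166 FPKM in the DMSO libraries, 409 and 459 after BLU667, then 451 and 471 in BR8, 185 and 194 in BR10 and 539.8 and 542 in BR16. It rose in BLU667 (1.34 ± 0.085, adjusted p = 4.44e-06), BR8 (1.43 ± 0.085, adjusted p = 5.96e-06) and BR16 (1.66 ± 0.085, adjusted p = 3.06e-06), and BR10 was not called (0.15 ± 0.085, adjusted p = 0.184). An antisense gene, CLMAT3, shares 7.89% of its exon bases. NID1 (ENSG00000116962, chromosome 1, 235975830 to 236065162, minus strand) had 45.6 and 41.4 FPKM in DMSO, 25.4 and 26.8 in BLU667, 19.8 and 22.8 in BR8, 39.9 and 41.7 in BR10 and 15.5 and 14.3 in BR16. It fell in BLU667 (-0.71 ± 0.094, adjusted p = 0.000268), BR8 (-1.0 ± 0.094, adjusted p = 6.62e-05) and BR16 (-1.48 ± 0.094, adjusted p = 8.66e-06), while in BR10 its change was -0.09 ± 0.094 (adjusted p = 0.489). BR10, in which SPARC and NID1 were not called, also had the smallest of the 4 changes of COL4A1, COL4A2 and HSPG2.

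**Figure D3:**
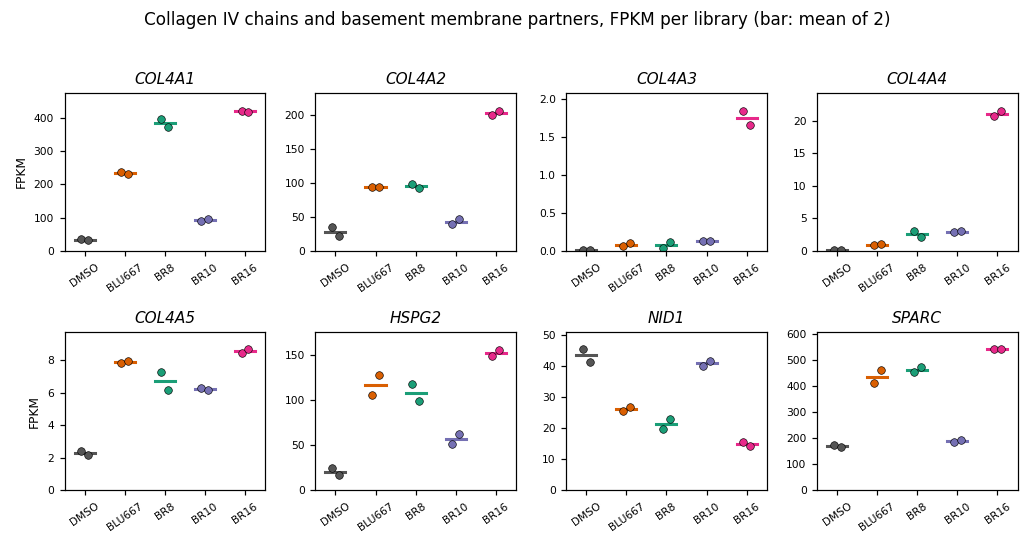
FPKM of 5 collagen IV chains and of HSPG2, NID1 and SPARC in each library, with a bar at the mean of 2 libraries per group and an axis from 0 that differs by gene. COL4A4 stands at 20.7 and 21.4 FPKM in BR16 and at 3.11 or less elsewhere, and NID1 is the one gene of the 8 with its highest mean in DMSO.

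Among fibril-forming chains, COL5A1 and COL5A2 moved in opposite directions in the colonies. Type V regulates fibril diameter and is usually a trimer of COL5A1 and COL5A2 products. COL5A1 (ENSG00000130635, chromosome 9, 134641774 to 134844843, plus strand) had 3.58 and 2.48 FPKM in the DMSO libraries, 4.02 and 5.12 after BLU667, then 8.71 and 8.49 in BR8, 6.03 and 7.67 in BR10 and 12.2 and 11.8 in BR16. It rose in each colony, by 1.27 in BR8, 0.97 in BR10 and 1.71 in BR16 (each ± 0.16, largest adjusted p = 0.0019). Its change in BLU667 was 0.47 ± 0.16 (adjusted p = 0.0296), a call that held in 14 of 18 alternatives (adjusted p 0.00137 to 0.173). It ended without DMSO replicate 2 (0.28) or BLU667 replicate 2 (0.33), among others.

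COL5A2 (ENSG00000204262, chromosome 2, 189031896 to 189225312, minus strand) had 2.11 and 2.13 FPKM in DMSO, 5.25 and 5.44 in BLU667, 0.931 and 0.788 in BR8, 0.681 and 0.716 in BR10 and 0.843 and 0.786 in BR16. It rose in BLU667 (1.02 ± 0.093, adjusted p = 3.2e-05) and was below DMSO in each colony (-0.75 in BR8, -0.88 in BR10 and -0.78 in BR16, each ± 0.093, largest adjusted p = 0.000301). The colonies were not called apart (0.13 log2 units between the highest and lowest colony mean, adjusted p = 0.445). COL5A1 was 1.43 times COL5A2 in DMSO and 0.855 times in BLU667, but 10.0, 9.81 and 14.7 times in BR8, BR10 and BR16.

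COL1A1 (α1 of type I, ENSG00000108821, chromosome 17, 50183289 to 50201632, minus strand) was low, with 0.527 and 0.38 FPKM in the DMSO libraries, 1.09 and 1.69 after BLU667, then 0.904 and 0.858 in BR8, 0.454 and 0.458 in BR10 and 2.23 and 2.05 in BR16. It was called higher in BLU667 (0.71 ± 0.14, adjusted p = 0.00296) and in BR16 (1.11 ± 0.14, adjusted p = 0.000419), and BR10 was level with DMSO (0.0 ± 0.14, adjusted p = 0.989). COL1A2, whose product completes the usual type I trimer, had no read in any library, which allows at most 0.017 FPKM in any library (3 reads, counting error only). COL27A1 (ENSG00000196739, chromosome 9, 114155560 to 114312511, plus strand), a fibrillar chain of cartilage, had 8.49 and 5.92 FPKM in DMSO, 19.1 and 17.5 in BLU667, 5.8 and 6.69 in BR8, 7.71 and 7.89 in BR10 and 10.3 and 10.5 in BR16. It stood apart in BLU667 (1.25 ± 0.14, adjusted p = 0.000112). In BR16 the change was 0.49 ± 0.14 (adjusted p = 0.0221), which was lost without DMSO replicate 2 or either BR16 library (adjusted p 0.00104 to 0.0954 over 11 alternatives).

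COL12A1 (ENSG00000111799, chromosome 6, 75084326 to 75206051, minus strand), a fibril-associated chain, had 4.67 and 5 FPKM in the DMSO libraries, 30.1 and 31.5 after BLU667, then 27.1 and 27.3 in BR8, 28.8 and 28.4 in BR10 and 21.8 and 22.9 in BR16. The mean of every treated or adapted group was 4.63-fold (BR16) to 6.37-fold (BLU667) that of DMSO, with no overlap of libraries. The changes were 2.45 in BLU667, 2.27 in BR8, 2.34 in BR10 and 2.0 in BR16 (each ± 0.071, largest adjusted p = 8.26e-07). COL9A2 (ENSG00000049089, chromosome 1, 40300487 to 40317813, minus strand), a chain of the fibril-associated type IX, had 0.23 and 0.225 FPKM in DMSO, 3.38 and 4.39 in BLU667, 3.08 and 2.97 in BR8, 0.411 and 0.408 in BR10 and 1.96 and 2.1 in BR16. It rose in BLU667 (1.99 ± 0.12, adjusted p = 2.89e-06), BR8 (1.71 ± 0.12, adjusted p = 1.18e-05) and BR16 (1.3 ± 0.12, adjusted p = 5.71e-05), not in BR10 (0.2 ± 0.12, adjusted p = 0.211). COL9A1 had no read and COL9A3 did not exceed 0.176 FPKM.

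COL7A1 (ENSG00000114270, chromosome 3, 48564073 to 48595267, minus strand) forms the anchoring fibrils beneath epithelia, and COL17A1 (ENSG00000065618, chromosome 10, 104031286 to 104085957, minus strand) is a transmembrane collagen of hemidesmosomes. COL7A1 had 1.89 and 1.43 FPKM in the DMSO libraries, 6.34 and 7.3 after BLU667, then 17.2 and 15.1 in BR8, 4.49 and 5.5 in BR10 and 17.2 and 16.5 in BR16. It rose in BLU667 (1.56 ± 0.13, adjusted p = 1.66e-05) and in each colony (2.69 in BR8, 1.17 in BR10 and 2.75 in BR16, each ± 0.13, largest adjusted p = 0.000242), and BR10 again had the smallest rise. COL17A1 had 3.48 and 3.15 FPKM in DMSO, 0.426 and 0.48 in BLU667, 0.298 and 0.319 in BR8, 0.534 and 0.636 in BR10 and 0.95 and 0.989 in BR16. It went the other way in every group, by -1.57 in BLU667, -1.72 in BR8, -1.44 in BR10 and -1.13 in BR16 (each ± 0.11, largest adjusted p = 9.51e-05), and only DMSO had 1 FPKM in both libraries.

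COL13A1 (ENSG00000197467, chromosome 10, 69801867 to 69964275, plus strand), another transmembrane collagen, had 3.21 and 2.55 FPKM in the DMSO libraries, 1.41 and 1.34 after BLU667, then 0.541 and 0.403 in BR8, 3.33 and 3.01 in BR10 and 1.41 and 1.2 in BR16. It was lower than in DMSO in BLU667 (-0.7 ± 0.12, adjusted p = 0.00114), BR8 (-1.39 ± 0.12, adjusted p = 4.04e-05) and BR16 (-0.75 ± 0.12, adjusted p = 0.00131) and level with it in BR10 (0.11 ± 0.12, adjusted p = 0.501). COL18A1 (ENSG00000182871, chromosome 21, 45405137 to 45513720, plus strand), a basement membrane proteoglycan whose end fragment is endostatin, had 18.8 and 12.2 FPKM in DMSO, 24.1 and 18.4 in BLU667, 6.28 and 4.56 in BR8, 5.76 and 7.62 in BR10 and 40.3 and 40.5 in BR16. Its colonies split in direction: BR8 (-1.35 ± 0.22, adjusted p = 0.00136) and BR10 (-1.08 ± 0.22, adjusted p = 0.00579) were below DMSO and BR16 (1.36 ± 0.22, adjusted p = 0.00154) above. BLU667 was not called (0.45 ± 0.22, adjusted p = 0.119), but 4 of 18 alternatives called it, among them the fit without DMSO replicate 1 (0.74), with adjusted p from 0.000413 to 0.574. SLC19A1, on the other strand, shares 16.4% of its exon bases.

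The type VI chains COL6A1 and COL6A2, which form beaded filaments around cells, ranged over the libraries from 36.6 to 86.0 FPKM and from 27.1 to 59.1 FPKM. COL6A1 rose in BLU667 (0.62 ± 0.16, adjusted p = 0.00934), BR8 (0.92 ± 0.16, adjusted p = 0.00169) and BR16 (0.95 ± 0.16, adjusted p = 0.00166). The BLU667 call was lost without DMSO replicate 2 (0.47) or BLU667 replicate 2 (0.49), with an adjusted p of up to 0.0651. COL6A2 was called in BR16 (0.87 ± 0.15, adjusted p = 0.00213) and not in BLU667 (0.4 ± 0.15, adjusted p = 0.0523), where 6 of 18 alternatives called it (adjusted p 0.00134 to 0.279), among them the fits without DMSO replicate 1 (0.60) and without BLU667 replicate 1 (0.53). COL6A3, the third chain of the usual trimer, lay just under the filter, with 0.9998 and 1.11 FPKM in DMSO, 0.272 and 0.287 in BLU667, 0.0232 and 0.0151 in BR8, 0.176 and 0.24 in BR10 and 0.0502 and 0.034 in BR16. Its DMSO mean (364 and 344 reads) was 3.77-fold that in BLU667, 55.0-fold in BR8, 5.06-fold in BR10 and 24.9-fold in BR16. It had 8 and 5 reads in BR8, and these folds carry no test. COL8A1, a short-chain network collagen at 5.69 and 5.49 FPKM in DMSO and 8.65 to 15.3 FPKM elsewhere, was higher throughout, by 0.99 ± 0.081 (adjusted p = 1.84e-05) in BLU667 and 0.63 ± 0.081 (adjusted p = 0.000358), 1.25 ± 0.081 (adjusted p = 1.87e-05) and 0.68 ± 0.081 (adjusted p = 0.000268) in BR8, BR10 and BR16. COL16A1, a fibril-associated chain at 0.743 to 2.26 FPKM, was not called against DMSO in BLU667 (0.19 ± 0.16, adjusted p = 0.309; 1 of 17 alternatives called it, with the GC trend removed, and adjusted p ran from 0.0129 to 0.941).

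Among laminins, LAMB3 of the epithelial type fell in BLU667, while LAMB1 and LAMB2 of the general basement membrane trimers rose. LAMB3 (β3, ENSG00000196878, chromosome 1, 209614870 to 209652466, minus strand) had 179 and 133 FPKM in the DMSO libraries, 26.3 and 24.8 after BLU667, then 125 and 114 in BR8, 66.6 and 77.8 in BR10 and 96.2 and 92.6 in BR16. It fell in BLU667 (-2.55 ± 0.14, adjusted p = 2.19e-06), to 0.164 times its DMSO level. It was also below DMSO in BR10 (-1.09 ± 0.14, adjusted p = 0.000635) and BR16 (-0.7 ± 0.14, adjusted p = 0.00426), whereas BR8 was not called (-0.37 ± 0.14, adjusted p = 0.0566), although it was without DMSO replicate 2 (-0.59; adjusted p 0.00383 to 0.272 over 11 alternatives).

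LAMA3 (α3), whose product assembles with β3, stayed between 2.24 and 3.22 FPKM in all 10 libraries, with a change of -0.2 ± 0.1 (adjusted p = 0.127) in BLU667 and 0.04 log2 units between the highest and lowest colony mean, adjusted p = 0.944 among the colonies.

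LAMB1 (β1, ENSG00000091136, chromosome 7, 107923799 to 108003255, minus strand) and LAMB2 (β2, ENSG00000172037, chromosome 3, 49121114 to 49133118, minus strand) rose together in BLU667. LAMB1 had 24.7 and 23.5 FPKM in DMSO, 83.7 and 91.5 in BLU667, 36.4 and 37.6 in BR8, 40.9 and 42.6 in BR10 and 42.8 and 41.9 in BR16. LAMB2 had 18 and 13.7 FPKM in the DMSO libraries, 54.2 and 56.9 after BLU667, then 20.8 and 18.4 in BR8, 20.7 and 23.1 in BR10 and 29.2 and 30.1 in BR16. Both peaked in BLU667 (1.82 ± 0.075, adjusted p = 4.81e-07 for LAMB1 and 1.76 ± 0.13, adjusted p = 8.79e-06 for LAMB2). The mean of the 3 colonies lay below BLU667 for each (-1.1 ± 0.061, adjusted p = 2.43e-06 for LAMB1 and -1.22 ± 0.1, adjusted p = 2.22e-05 for LAMB2), and in both cases above DMSO (0.72 ± 0.061, adjusted p = 3.81e-05 and 0.54 ± 0.1, adjusted p = 0.00294). By colony, LAMB2 was called above DMSO in BR10 (0.45 ± 0.13, adjusted p = 0.0221) and BR16 (0.87 ± 0.13, adjusted p = 0.000773). The BR10 call held in 9 of 11 alternatives, with changes of 0.27 to 0.63. In BR8, at 1.24 times its DMSO mean, LAMB2 was not called.

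LAMC1 (γ1), which pairs with either β chain, ranged from 124 to 168 FPKM over the libraries, and BLU667 did not differ by a called amount (-0.03 ± 0.072, adjusted p = 0.749). Its small fall in BR10 (-0.21 ± 0.072, adjusted p = 0.0451) was lost in all 11 alternatives (adjusted p 0.0513 to 0.226). LAMA5 (α5, ENSG00000130702, chromosome 20, 62307955 to 62367312, minus strand), the α chain of most adult basement membranes, had 26 and 16.2 FPKM in DMSO, 23.3 and 24.2 in BLU667, 16.2 and 12.2 in BR8, 11.1 and 14.5 in BR10 and 28.8 and 30.5 in BR16. BR16 lay above BR8 and BR10 (-1.02 ± 0.22, adjusted p = 0.00606 for BR8 against BR16). Its 2 DMSO libraries differed by more than BLU667 did from their mean, and the change in BLU667 was 0.2 ± 0.22 (adjusted p = 0.453) (called in 2 of 18 alternatives, among them that without DMSO replicate 1, 0.52; adjusted p 0.0068 to 0.646). The call in BR10 (-0.65 ± 0.22, adjusted p = 0.0413) held in 4 of 11 alternatives and was lost without DMSO replicate 1 (-0.33) or BR10 replicate 1 (-0.48), among others. With each library's GC trend removed, LAMA5 and LAMB2 were no longer called apart among colonies (adjusted p up to 0.18 and 0.438 over 18 alternatives). LAMA1 had no read, and LAMA2, LAMA4, LAMB4 and LAMC3 reached at most 0.417, 0.0428, 0.0351 and 0.00811 FPKM.

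**Figure D4:**
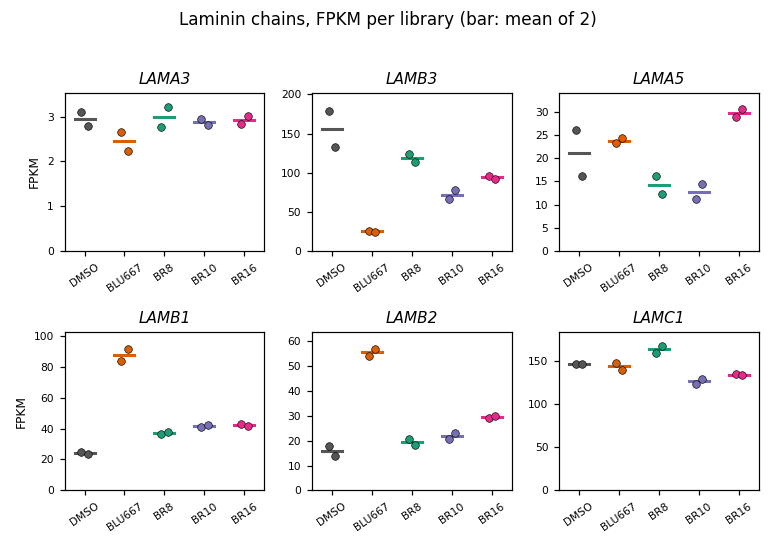
FPKM of 6 tested laminin chains in each library, with a bar at the mean of 2 libraries per group and an axis from 0 that differs by gene. LAMB3 is lowest in BLU667 (26.3 and 24.8 FPKM) where LAMB1 and LAMB2 are highest, and LAMA3 stays between 2.24 and 3.22 FPKM.

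FN1, TNC and BGN each set a different colony apart from the other two, and the letters before their starts are shown so that the stretches upstream of these unlike profiles can be compared. They are the 250 bases upstream of the RefSeq starts on GRCh38.p14, 5′ to 3′ on the strand of the gene, with CCAAT or ATTGG and GGGCGG or CCGCCC in capitals: FN1 at chr2:215436069-215436318 (minus), TNC at chr9:115118158-115118407 (minus) and BGN at chrX:153494730-153494979 (plus).
FN1: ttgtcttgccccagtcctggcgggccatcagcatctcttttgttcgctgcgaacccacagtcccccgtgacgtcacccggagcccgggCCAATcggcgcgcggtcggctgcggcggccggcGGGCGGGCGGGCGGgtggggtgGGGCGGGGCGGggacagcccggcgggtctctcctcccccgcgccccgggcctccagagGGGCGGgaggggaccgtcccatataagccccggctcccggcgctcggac
TNC: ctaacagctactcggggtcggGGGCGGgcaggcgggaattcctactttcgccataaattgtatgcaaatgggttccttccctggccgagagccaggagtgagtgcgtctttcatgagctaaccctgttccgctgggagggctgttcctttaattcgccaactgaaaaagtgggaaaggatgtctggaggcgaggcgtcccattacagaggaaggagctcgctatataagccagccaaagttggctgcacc
BGN: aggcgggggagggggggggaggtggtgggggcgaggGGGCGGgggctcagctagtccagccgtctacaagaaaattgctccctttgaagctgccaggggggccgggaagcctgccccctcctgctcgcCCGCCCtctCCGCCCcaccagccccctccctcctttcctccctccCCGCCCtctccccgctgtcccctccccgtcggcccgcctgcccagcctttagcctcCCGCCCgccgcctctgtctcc
FN1 holds 1 CCAAT and 6 GC box matches (some overlap, in 2 runs), TNC 1 GC box, and BGN 5 GC boxes. None of them holds TGANTCA.

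FN1 (ENSG00000115414, chromosome 2, 215360440 to 215436172, minus strand) encodes fibronectin, which joins collagens to integrins. It had 121 and 127 FPKM in the DMSO libraries, 348 and 477 after BLU667, then 20.3 and 21.9 in BR8, 375 and 380.3 in BR10 and 345 and 331 in BR16. The 2 BR8 libraries lay below DMSO and all others above it. The changes were 1.71 in BLU667, -2.5 in BR8, 1.6 in BR10 and 1.44 in BR16 (each ± 0.13, largest adjusted p = 7.15e-05), and the difference between BR8 and BR10 was -4.1 ± 0.13 (adjusted p = 3.17e-06). The mean of the 3 colonies therefore described none of them (0.18 ± 0.11, adjusted p = 0.219 against DMSO).

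TNC (ENSG00000041982, chromosome 9, 115019578 to 115118257, minus strand) encodes tenascin C, a matrix protein of wounds and tumour stroma. It had 14 and 11 FPKM in DMSO, 2.31 and 4.03 in BLU667, 8.65 and 9.25 in BR8, 29.4 and 34.4 in BR10 and 6.97 and 7.09 in BR16. BR10 was the one group above DMSO (1.29 ± 0.19, adjusted p = 0.00122). BLU667 was lowest (-1.72 ± 0.19, adjusted p = 0.000104), and BR8 (-0.43 ± 0.19, adjusted p = 0.0914) was not called except in the 2 fits that left out a BLU667 library (adjusted p 0.0243 to 0.361 over 11 alternatives). BR16 was called lower (-0.74 ± 0.19, adjusted p = 0.0136), a call lost without DMSO replicate 1 (-0.58), BR16 replicate 1 (-0.73) or BR16 replicate 2 (-0.75), with adjusted p from 0.00284 to 0.0697.

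BGN (ENSG00000182492, chromosome X, 153494939 to 153509554, plus strand) encodes biglycan, a small leucine-rich proteoglycan that binds collagen. It had 0.22 and 0.103 FPKM in the DMSO libraries, 1.64 and 2.06 after BLU667, then 1.07 and 1.33 in BR8, 3.23 and 2.86 in BR10 and 20.3 and 19 in BR16. All treated and adapted libraries exceeded DMSO, where 10 and 4 reads were counted. The changes were 1.3 in BLU667, 0.92 in BR8, 1.8 in BR10 and 4.15 in BR16 (each ± 0.11, largest adjusted p = 0.000298). LUM (ENSG00000139329, chromosome 12, 91102629 to 91111831, minus strand) encodes lumican, of the same family. It had 0 and 0 FPKM in DMSO, 0.246 and 0.363 in BLU667, 4.61 and 6.43 in BR8, 0.123 and 0.044 in BR10 and 0.0819 and 0 in BR16. LUM reached 1 FPKM in BR8 alone (2.69 ± 0.16, adjusted p = 6.69e-06) and was there at least 190.3-fold higher than in DMSO, where both libraries had no read (3 reads over the group taken as the floor). In BLU667 it had 13 and 19 reads, a change of 0.38 ± 0.16 (adjusted p = 0.0753) that 2 of 14 alternatives called, with a pseudocount of 0.1 FPKM (2.00) and with voom (4.99; adjusted p 0.00193 to 0.258).

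THBS1 (ENSG00000137801, chromosome 15, 39581079 to 39599466, plus strand) encodes thrombospondin-1, which binds matrix and activates TGF-β, and had the highest mean of all members in BLU667 and in each colony. Its BLU667 libraries overlapped those of SPARC and FN1, and in BR10 those of FN1, while in BR8 and BR16 it lay above all others. This rank is in FPKM and depends on the annotated exon length, 9158 bases for THBS1 and 17315 for FN1. By reads, FN1 was above THBS1 in BLU667 (249522 against 148138) and in BR10 (254279 against 135771). It had 125 and 145 FPKM in the DMSO libraries, 440.3 and 485 after BLU667, then 826 and 771 in BR8, 379 and 383 in BR10 and 716 and 744 in BR16. It rose by 1.77 in BLU667, 2.56 in BR8, 1.5 in BR10 and 2.43 in BR16 (each ± 0.098, largest adjusted p = 1.97e-05). FSIP1 on the other strand shares 4.89% of its exon bases. FBN1 (ENSG00000166147, chromosome 15, 48408306 to 48645849, minus strand) encodes fibrillin-1 of microfibrils and had 2.54 and 2.71 FPKM in DMSO, 6.74 and 8.18 in BLU667, 3.01 and 3.01 in BR8, 3.93 and 4.31 in BR10 and 3.11 and 2.79 in BR16. It was highest in BLU667 (1.22 ± 0.1, adjusted p = 1.97e-05), and of the colonies BR10 alone was called against DMSO (0.5 ± 0.1, adjusted p = 0.00548), with 0.15 ± 0.1 (adjusted p = 0.264) in BR8 and 0.12 ± 0.1 (adjusted p = 0.357) in BR16. POSTN, the remaining glycoprotein, did not exceed 0.0104 FPKM.

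**Figure D5:**
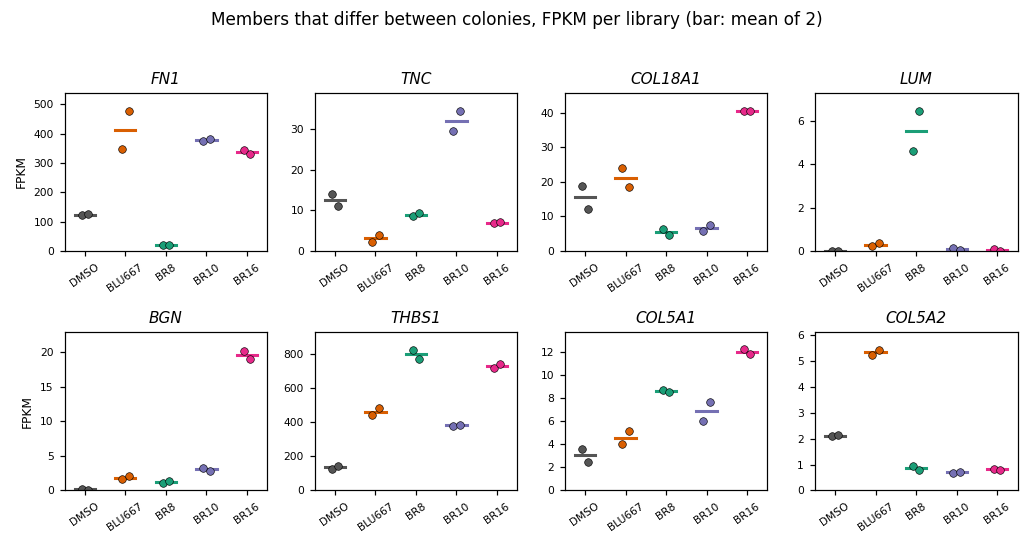
FPKM of 8 members in each library, with a bar at the mean of 2 libraries per group and an axis from 0 that differs by gene. BR8 is lowest for FN1 (20.3 and 21.9 FPKM) and highest for LUM, BR10 is highest for TNC (29.4 and 34.4 FPKM), and BR16 is highest for COL18A1 and BGN.

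Differences among the 3 colonies were called for 32 of the 35 tested members (moderated F test, adjusted p below 0.05), beside 58.1% of all tested genes. The median distance between the highest and the lowest colony mean was 1.11 on the log2 scale for members and 0.49 for all genes. The 3 not called were COL5A2, LAMB1 and LAMA3. The largest distances were those of FN1 (4.1 log2 units between the highest and lowest colony mean, adjusted p = 3.55e-06), BGN (3.23 log2 units between the highest and lowest colony mean, adjusted p = 5.65e-06), COL18A1 (2.7 log2 units between the highest and lowest colony mean, adjusted p = 0.000138) and LUM (2.63 log2 units between the highest and lowest colony mean, adjusted p = 4.13e-05). LUM reached 1 FPKM in both libraries of BR8 alone, and COL4A3 in both of BR16 alone. Each passed the filter through the colony in which it was high, so its F call is not independent of the filter. BR8 exceeded BR10 in 12 members and was below it in 8, with 22.8% of all genes called. BR8 exceeded BR16 in 6 and was below it in 15, with 48.6% called, and the 6 became 2 without BR8 replicate 2 and 3 without BR8 replicate 1 or either BR16 library. BR10 exceeded BR16 in 7 and was below it in 19, with 43.1% called. Removal of each library's GC trend ended the F call of COL17A1, COL27A1, COL5A1, COL6A2, LAMA5 and LAMB2. The part of GC content in these differences was not tested beyond that.

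Against 24 h of BLU667, the mean of the adapted colonies was higher for 10 tested members and lower for 10, with 61.1% of all genes called (32.4% higher, 28.7% lower), and the median change was -0.03 against 0.03 over all genes. Among the higher, LAMB3 (1.83 ± 0.12, adjusted p = 4.71e-06), COL4A4, COL5A1 and TNC had the mean of each colony above BLU667. Some higher calls did not describe every colony: BR8 lay below BLU667 for BGN and COL4A3, and BR10 for COL7A1 and THBS1. LUM was above BLU667 in BR8 alone (0.275 times its BLU667 level in BR10 and 0.134 times in BR16), and its change of 0.57 became -0.30 without BR8 and -0.42 with voom. Among the 10 lower, COL5A2 (-1.83 ± 0.076, adjusted p = 5.49e-07), COL27A1 (-1.1 ± 0.11, adjusted p = 7.25e-05), LAMB1, LAMB2, FBN1, COL9A2, COL12A1 and FN1 had each colony mean below BLU667. SPARC was below it in BR10 alone (0.437 times, against 1.06 times in BR8 and 1.25 times in BR16), and its change of -0.26 became 0.20 without BR10. COL18A1 was above it in BR16 (1.91 times) and below in BR8 and BR10. The calls were also lost without BR16 for BGN (0.06), COL4A3 (0.03) and COL12A1 (-0.14), without BR8 for THBS1 (0.19), FN1 (-0.19) and COL18A1 (-0.31), and without BR10 for COL18A1 (-0.44). Leaving out BLU667 replicate 1 ended those of COL18A1 (-0.62), COL4A3 (0.43) and LUM (0.51), and leaving out BLU667 replicate 2 those of COL12A1 (-0.21) and SPARC (-0.18). With the 3 colony means as replicates, so that the error is that between colonies, 3 stayed higher (LAMB3 and COL5A1 among them) and 5 lower (COL5A2, COL27A1, LAMB1, LAMB2, FBN1). Of all 13927 tested genes, that setting called 1977 higher and 1679 lower than in BLU667. Against DMSO the same mean was higher for 22 members and lower for 5, with 49.2% of all genes called (22.9% higher, 26.3% lower) and a median of 0.56 against -0.03. With colony means as replicates, 9 were higher (COL12A1, COL4A5, THBS1, HSPG2, COL5A1, LAMB1, COL7A1, COL4A1, COL8A1) and 2 lower (COL17A1, COL5A2). Of all 13927 tested genes, the same setting called 818 higher and 722 lower than in DMSO.

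Collagen chains are hydroxylated, glycosylated, trimmed and crosslinked by other gene products, and 22 of 28 listed genes of collagen processing were tested. In BLU667, 9 were higher and 8 lower than in DMSO, beside 60.2% of all tested genes called. LOXL4, a crosslinking lysyl oxidase, rose in BLU667 (1.98 ± 0.15, adjusted p = 1.03e-05) and in the mean of the colonies (2.97 ± 0.12, adjusted p = 6.8e-07), and ADAMTS3, a procollagen N-proteinase, did likewise (1.73 ± 0.13, adjusted p = 9.77e-06 and 2.61 ± 0.1, adjusted p = 6.34e-07). PCOLCE2, an enhancer of C-proteinase, and COLGALT1, a galactosyltransferase of collagen, fell in BLU667 (-1.42 ± 0.12, adjusted p = 2.09e-05 and -1.28 ± 0.094, adjusted p = 1.03e-05). In the mean of the colonies 9 were higher than in DMSO and 3 lower, beside 49.2% of all genes, with LOXL1 (1.28 ± 0.1, adjusted p = 2.55e-05) and the prolyl hydroxylase subunit P4HA2 (0.85 ± 0.073, adjusted p = 3.97e-05) among the 9. Against BLU667 the colonies were higher for 13 and lower for 5, beside 61.1% of all genes, among the higher COLGALT1 (1.23 ± 0.077, adjusted p = 4.34e-06) and P4HA2 (1.13 ± 0.073, adjusted p = 5.39e-06). The colonies differed in 18 of 22, beside 58.1% of all genes, most in SERPINH1, the collagen chaperone HSP47 (2.04 log2 units between the highest and lowest colony mean, adjusted p = 4.13e-05), at 47.9 and 40.3 FPKM in BR8, 9.31 and 10.5 in BR10 and 42.1 and 44.4 in BR16.

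Of 16 listed basement membrane partners, 8 were tested, of which 4 were higher and 2 lower in BLU667 (60.2% of all genes called), 5 higher and 2 lower in the mean of the colonies against DMSO (49.2% of all genes), and 8 differed among colonies (58.1% of all genes). NTN4, a netrin that binds laminin γ chains, rose in BLU667 (2.88 ± 0.09, adjusted p = 1.29e-07), as did NID2, nidogen-2 (2.29 ± 0.19, adjusted p = 1.91e-05), whose paralog NID1 fell. NID2 stood at 39.8 and 49.4 FPKM in BR8, 10.2 and 10.8 in BR10 and 13.4 and 14.2 in BR16. FRAS1, of the epithelial basement membrane, was at 0.0228 and 0.0534 FPKM in DMSO and at 3.68 and 3.52 FPKM in BR8, 7.67 and 8.09 in BR10 and 4.98 and 4.78 in BR16, with a change in the mean of the colonies of 2.58 ± 0.077 (adjusted p = 1.75e-07).

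Of 18 listed collagen and laminin receptors, 11 were tested. In BLU667, 4 were higher and 6 lower than in DMSO, beside 60.2% of all genes called. The integrin subunits ITGA3 (-2.95 ± 0.16, adjusted p = 1.95e-06) and ITGA6 (-1.95 ± 0.088, adjusted p = 7.02e-07), which bind laminins, fell in BLU667, and the hyaluronan receptor CD44 fell too (-2.66 ± 0.077, adjusted p = 9.58e-08). BCAM, a receptor of laminin α5, rose (2.01 ± 0.2, adjusted p = 4.92e-05). Against DMSO, the mean of the colonies was higher for 1 receptor, SDC4 (1.73 ± 0.06, adjusted p = 3.41e-07), and lower for 4, among them ITGA6 (-1.14 ± 0.072, adjusted p = 7.17e-06), ITGA2 (-0.86 ± 0.07, adjusted p = 2.73e-05) and CD44 (-0.75 ± 0.063, adjusted p = 3.58e-05), beside 49.2% of all genes called. Against BLU667 it was higher for 7, among them ITGA3 (2.75 ± 0.13, adjusted p = 1.05e-06), and lower for 3, among them BCAM (-2.56 ± 0.16, adjusted p = 4.4e-06), beside 61.1% of all genes. BCAM also differed most among the colonies (2.63 log2 units between the highest and lowest colony mean, adjusted p = 0.00011), at 4.03 and 3.6 FPKM in BR8, 16.8 and 21.8 in BR10 and 28.3 and 29.3 in BR16.

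Of 37 other matrix glycoproteins and proteoglycans listed, 18 were tested, with 6 higher and 5 lower in BLU667, a share close to the 60.2% of all genes called. In the mean of the colonies 5 were higher and 6 lower than in DMSO (49.2% of all genes called) and 5 higher and 10 lower than in BLU667 (61.1%), and 15 differed among the colonies (58.1%). MATN2, matrilin-2, rose in BLU667 (2.16 ± 0.073, adjusted p = 1.73e-07) and in the mean of the colonies (3.34 ± 0.059, adjusted p = 1.55e-08). VCAN, the large proteoglycan versican, rose in BLU667 (1.72 ± 0.08, adjusted p = 8.31e-07) and was lower in the mean of the colonies than in BLU667 (-1.37 ± 0.065, adjusted p = 1.05e-06). SPOCK1, a testican, rose in BLU667 (1.78 ± 0.2, adjusted p = 0.000118) and in the colonies (2.74 ± 0.17, adjusted p = 5.63e-06). TGFBI, a collagen-binding secreted protein, had 50.5 and 55.5 FPKM in BR8, 6.76 and 6.64 in BR10 and 15.7 and 15.4 in BR16, the largest distance of the list (2.81 log2 units between the highest and lowest colony mean, adjusted p = 0.000244). EFEMP1, fibulin-3, fell in the mean of the colonies (-2.53 ± 0.099, adjusted p = 6.09e-07).

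Most of the 31 members under the filter give little to describe. No read was counted for 6 of them in any library, namely COL1A2, COL2A1, COL5A3, COL9A1, COL22A1 and LAMA1, and 26 of the 31 stayed below 0.2 FPKM in every library. Besides COL6A3, the highest were COL8A2 (0.633 and 0.678 FPKM in BLU667, 0 and 0.0271 in DMSO), COL11A2 (at most 0.521) and COL24A1 (at most 0.498). COL3A1, the chain of type III collagen and one of the main products of fibroblasts, did not exceed 0.0181 FPKM.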

How the data were processed

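Total RNA of 10 TPC-1 libraries, 2 per group, was sequenced from non-directional libraries, per the labels' protocols. Per the submitters' processing notes, the tools were CASAVA, STAR 2.5 and HTSeq 0.6.1 on GRCh38, with DESeq2 (version given as 2). The sources used here do not give their settings. The values the authors deposited are FPKM of 58735 genes. The annotation release is not named, but 100% of the gene coordinates equal those of GENCODE 29. When FPKM were multiplied by length, 100% came out as whole reads (tolerance 0.05), from which depth and the voom alternative were taken.

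Members and gene lists were chosen with earlier results of these data known, so no list is independent support. A gene was tested if 2 or more libraries had 1 FPKM or more (13927 genes), on log2(FPKM + 1) with limma 3.58.1 (R 4.3.3, variance trend), all 5 groups in a single fit with 5 residual degrees of freedom. P-values were two-sided, Benjamini-Hochberg adjusted over all tested genes, with calls at an adjusted p below 0.05. The mean of the 3 colony means stood for the adapted colonies, and differences among them used the moderated F test. Every tested member was named except 1, which is counted but not reported here. Library values were printed for members called with an absolute log2 change of at least 1 in a main comparison or between colony means, and up to 4 called genes were named per list and comparison.

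Replicate numbers were checked for pairing: over 10 pairs of groups, deviations of same-numbered libraries correlated at -0.163 to 0.109, so they were not treated as pairs. Sequences came from RefSeq tables on GRCh38.p14. Figures were drawn with matplotlib 3.10.9 under Python 3.11.15. The adapted colonies without BR8 and without BR10 were alternatives added after seeing the data.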

Additional observations from a re-analysis of the deposited data

Results flagged for a closer look

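In 3 members, colonies moved in opposite directions against the shared DMSO libraries, each side called by limma, and the direct difference between those colonies was called as well. FN1 was lower than in DMSO in BR8 and higher in BR10 and BR16, and BR8 differed from BR10 by -4.10 (adjusted p = 3.17e-06) and from BR16 by -3.94 (adjusted p = 3.55e-06) on the log2 scale, with both BR8 libraries below all libraries of the other colonies. COL18A1 was lower than in DMSO in BR8 and BR10 and higher in BR16. Its difference was -2.70 (adjusted p = 0.000176) for BR8 against BR16 and -2.44 (adjusted p = 0.000213) for BR10 against BR16. TNC was higher in BR10 and lower in BR16, with a difference of 2.03 (adjusted p = 0.000235), although the fall of TNC in BR16 against DMSO was lost without DMSO replicate 1 or either BR16 library. Groups of 2 libraries are too small to single out a stray library.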

How the results depend on the processing

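Over all settings, 5012 results for single members were recomputed. Of these, 4748 kept their direction and side of the threshold, 83 passed it anew, 171 no longer passed and 10 reversed, and 85 more changed sign with neither value called. Counts of called members moved by over 1.5 times as follows. Against DMSO, the adapted mean had 9 higher and 2 lower members with colony means as 3 replicates, 3 lower with FPKM of at least 5, and 8 lower without BR16. Over all genes, these settings gave 818 higher and 722 lower of 13927, 2793 lower of 8378, and 3730 lower of 13927. Against BLU667, the adapted mean had 3 higher and 5 lower with colony means as 3 replicates, beside 1977 higher and 1679 lower of all 13927 genes. Leaving out 1 library at a time gave 3 to 5 members lower in BR10 than in DMSO (main count 6) and 2 to 7 higher in BR8 than in BR16 (main count 6).

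The reversals lay in contrasts of the adapted mean. Against DMSO, FN1 was -0.45 without BR16 and -0.53 without BR10, and TNC was -0.59 without BR10. Against BLU667, LUM was -0.42 with voom on recovered reads and -0.30 without BR8, COL4A1 was -0.31 without BR16 and -0.24 without BR8, COL4A2 was -0.54 without BR16, and without BR10 SPARC was 0.20 and COL13A1 -0.37. Apart from LUM with voom, each reversal came from a mean with 1 colony left out. It follows from how that colony differed from the others. Why the colonies differed, and why voom reversed LUM, was not tested.

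The replicate numbers did not pair the libraries. The replicate block changed 4 of 350 calls: LAMA5 (-0.65, adjusted p = 0.0531) and LAMC1 (-0.21, adjusted p = 0.0773) in BR10 against DMSO, FBN1 in BR8 against BR10 (-0.35, adjusted p = 0.0535) and COL5A1 in BR8 against BR16 (-0.44, adjusted p = 0.0687). With 2 libraries per group, the SE of the adapted mean reflects spread between libraries, not between colonies, and levels under 0.2 FPKM rest on few reads.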

Other observations

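Several members are chromosome neighbours, and ratios of their levels per length are given by group, as values with no test. The absolute size of each ratio depends on the annotated exon lengths, which are the same in every group. COL6A1 and COL6A2, on the same strand of chromosome 21 with 93046 bases between them, had a ratio of mean FPKM (COL6A1 to COL6A2) of 1.34 in DMSO, 1.57 in BLU667, 2.12 in BR8, 1.32 in BR10 and 1.41 in BR16. COL4A4 was 12.3 times COL4A3 in DMSO, 12 times in BLU667, 33 times in BR8, 22.7 times in BR10 and 12.1 times in BR16, but COL4A3 had 2 reads in each DMSO library, and the BR8 ratio was 71.3 and 18.7 in its 2 libraries, with 7 and 18 reads of COL4A3. COL5A2 and COL3A1 lie tail to tail on chromosome 2, 19149 bases apart, and COL3A1 did not exceed 0.0181 FPKM in any library.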
